A study of Caenorhabditis elegans with 12 samples.

Results

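The genes F57C2.4, ule-5, ZC373.2, ZK813.3 and Y62H9A.5 had their highest levels in the oocyte next to the spermatheca. They were chosen for that pattern, because every oocyte at position -1 lay above every oocyte at the positions behind it. They are 5 of the 46903 genes in the count table and of the 8718 that passed a filter on low counts, and all 5 passed it. Their levels are therefore a description and carry no test. RNA was sequenced from single oocytes of Caenorhabditis elegans adults, wild type and untreated per the labels. There were 4 oocytes each at positions -5, -3 and -1, which makes 12 libraries. The oocyte at -1 is next to the spermatheca and is the oldest, and larger numbers lie farther back. The labels name no animals, so each position was taken as 1 sample and its 4 oocytes as single cells within it. The study asked whether oocytes acquire transcripts from the soma and how expression differs along the row of oocytes.

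In the hermaphrodite gonad, oocytes grow in single file inside a sheath of contractile somatic cells. The oocyte at -1 matures, is ovulated into the spermatheca and passes as a fertilised egg into the uterus. Growing oocytes take up yolk proteins made in the intestine. The ule genes take their name from expression in the uterine lumen, and ule-5 is the only one of the 5 genes here with such a name. The other 4 are known in the files by their sequence names alone, so no role is given for them. The X chromosome is largely silent through much of germline development and becomes more active during oogenesis.

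Libraries held 8358019 to 20446599 counts. A count of 3 in 1 library corresponded to 0.146 to 0.336 CPM, a measure that scales counts to the size of the library. The kit captures polyadenylated transcripts at their 3' ends without counting molecules, so all intervals cover counting error only. A level is a share of the library, and no measure of the RNA content of an oocyte was used, so more of a transcript and less of all the others cannot be told apart. In the libraries, 18 of 18 listed oocyte genes passed the filter and held 2.58% to 4.20% of counts at -5, 1.51% to 3.36% at -3 and 2.12% to 3.0% at -1. Replicate 1 of oocyte -3 had the largest share of counts from the X chromosome, 9.07%, where the other 11 oocytes had 5.6% to 7.09%. Replicates 1 and 3 of oocyte -3 were picked, with earlier results of these data known, as libraries that stand apart. Ratios to oocyte -3 are given with and without them.

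All 5 genes are short and protein coding, and none shares exonic bases with another gene of the annotation. F57C2.4 (WBGene00010196) lies on chromosome II at 14525312 to 14526031, plus strand, with 2 exons and a coding length of 88 codons. The other 4 lie on the X chromosome. ule-5 (WBGene00013394) is at 11883127 to 11884043 on the plus strand, with 3 exons and 181 codons. Y62H9A.5 (WBGene00013393) is its neighbour at 11882144 to 11882917 on the minus strand, with 4 exons and 165 codons. ZC373.2 (WBGene00013867) is at 10057925 to 10058437 on the minus strand, with 3 exons and 104 codons. ZK813.3 (WBGene00022822) is at 3441839 to 3442458 on the plus strand, with 2 exons and 157 codons. Coordinates are those of the count table, and coding lengths come from the Ensembl WBcel235 annotation. Of the 8718 genes that passed the filter, 1029 (11.8%) lie on X.

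F57C2.4 was detected at over 17 CPM in every -1 oocyte and at under 1 CPM in 6 of the 8 others. It had 9.11, 0.0790, 0.969 and 0.114 CPM in replicates 1 to 4 of oocyte -5. It had 5.23, 0.0841, 0 and 0.565 CPM in those of oocyte -3, and 46.8, 59.6, 17.9 and 44.5 CPM in those of oocyte -1. Replicate 1 was the only oocyte above 1 CPM at -5 and again at -3, and it held 89.8% of the gene's counts at -5. The count of 0 in replicate 3 of oocyte -3 allows up to 0.186 CPM in that library. From the summed counts, the level was 2.41 CPM at -5 (95% exact Poisson interval 2.01 to 2.87), 1.48 CPM at -3 (1.19 to 1.81) and 44.1 CPM at -1 (42.5 to 45.8).

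The gene ule-5 was clearest in its separation of -1 from the other positions. It had 4.20, 2.45, 2.32 and 0.114 CPM in the -5 oocytes, and 9.03, 0.421, 0.682 and 0.257 CPM in the -3 oocytes. In the -1 oocytes it had 55.0, 42.6, 19.7 and 50.5 CPM. The lowest of the -1 oocytes was 2.19 times the highest of the other 8, the widest such gap among the 5 genes. The level was 2.07 CPM at -5 (1.70 to 2.50), 2.56 CPM at -3 (2.18 to 2.98) and 46.1 CPM at -1 (44.4 to 47.8).

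ZC373.2 was the most even of the 5 genes at -1, where its highest oocyte was 2.41 times its lowest. Its values were 1.51, 4.11, 2.62 and 0.343 CPM at -5. They were 13.9, 0, 0 and 2.72 CPM at -3, and 58.0, 45.2, 26.7 and 64.2 CPM at -1. At -3 it was read in replicates 1 and 4 only, and a count of 0 allows up to 0.252 CPM in replicate 2 and 0.186 CPM in replicate 3. The level was 1.96 CPM at -5 (1.6 to 2.37), 4.27 CPM at -3 (3.78 to 4.81) and 53.1 CPM at -1 (51.3 to 55.0).

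ZK813.3 had the narrowest gap between the positions. It had 3.25, 2.45, 16.6 and 0.458 CPM in the -5 oocytes, 19.4, 0.0841, 0.124 and 0.411 CPM in the -3 oocytes and 51.0, 40.2, 22.5 and 93.9 CPM in the -1 oocytes. The lowest -1 oocyte was 1.16 times the highest other oocyte, replicate 1 of oocyte -3. The level was 4.73 CPM at -5 (4.16 to 5.35), 4.94 CPM at -3 (4.41 to 5.52) and 59.1 CPM at -1 (57.1 to 61.0).

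Y62H9A.5 varied the most among the -5 oocytes. The -5 oocytes had 3.57, 2.69, 25.1 and 0.0572 CPM, and the -3 oocytes had 17.5, 1.68, 0.248 and 6.22 CPM. The -1 oocytes had 52.3, 67.1, 31.2 and 124.03 CPM. Its highest -5 oocyte was 438 times its lowest, which was read once, while its highest -1 oocyte was 3.98 times its lowest. The level was 6.39 CPM at -5 (5.73 to 7.11), 6.62 CPM at -3 (6.0 to 7.29) and 75.7 CPM at -1 (73.5 to 77.9).

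**Figure D1:**
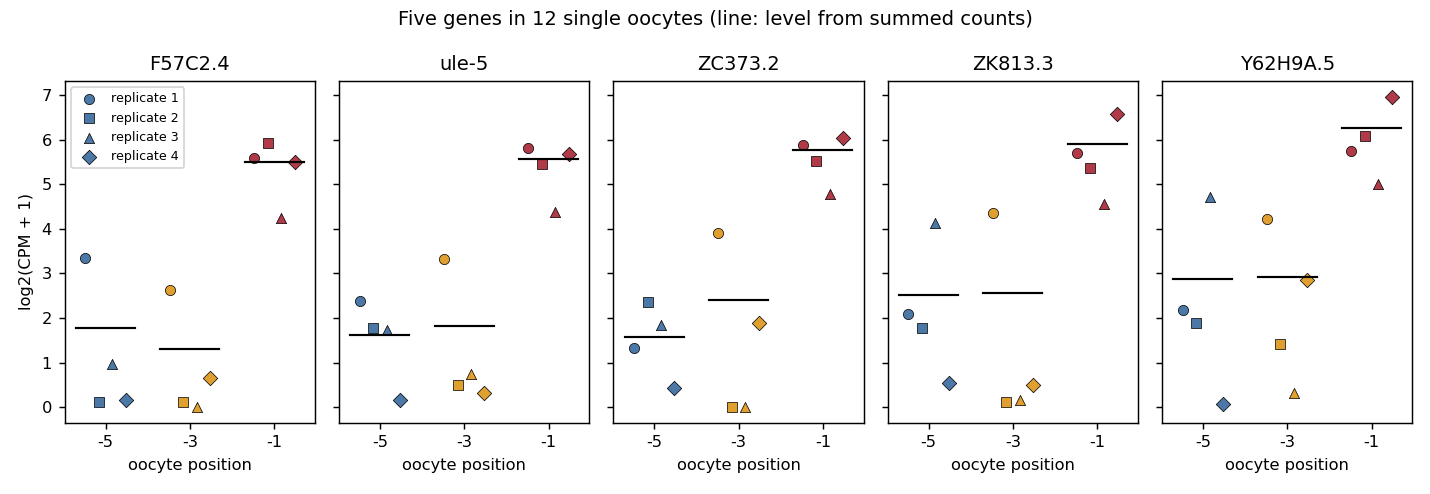
Level of each of the 5 genes in each of 12 single oocytes, as log2(CPM + 1), against oocyte position; shapes mark replicates 1 to 4 and the line is the level from summed counts. The -1 oocytes lie above all others, and replicate 1 of oocyte -3 (circle) is the highest -3 oocyte in all 5 panels.

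The ratio of levels between positions put all 5 genes far from the middle of the other genes, as the choice required. Over oocyte -5, oocyte -1 was higher by a log2 ratio of 4.76 for ZC373.2 (27.1-fold), 4.47 for ule-5 (22.2-fold), 4.19 for F57C2.4 (18.3-fold), 3.64 for ZK813.3 (12.5-fold) and 3.57 for Y62H9A.5 (11.8-fold). The median over the 5 was 4.19, against -0.01 over all 8718 genes. Of the 8718 genes, 0.723% were at least 2-fold higher at -1 than at -5 with no overlap of oocytes, and since the members were picked on these values their 5 of 5 is given only beside it. Larger ratios were found for 8 genes above ZC373.2 and for 34 above Y62H9A.5. Every -5 oocyte had counts for every member, but 48.2% to 89.8% of a member's -5 counts lay in 1 oocyte. The log2 ratio was 7.10 for F57C2.4 without replicate 1 of oocyte -5 and 5.37 for ZC373.2 without replicate 2. Without replicate 3 it was 4.98 for ZK813.3 and 5.34 for Y62H9A.5.

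Over oocyte -3, oocyte -1 was higher by a log2 ratio of 4.90 for F57C2.4 (29.9-fold) and 4.17 for ule-5 (18-fold). It was 3.64 for ZC373.2 (12.4-fold), 3.58 for ZK813.3 (12-fold) and 3.51 for Y62H9A.5 (11.4-fold). The median was 3.64, against 0.02 over all genes. This comparison uses the same -1 oocytes as the one with -5, so the values are not independent of those above. At least 2-fold higher with no overlap were 1.47% of the 8718 genes. Replicate 1 of oocyte -3 held most of the -3 counts of every one of the 5 genes. Without it the log2 ratios were 7.99 for ZK813.3, 7.45 for F57C2.4, 5.57 for ZC373.2, 6.70 for ule-5 and 4.63 for Y62H9A.5. Without both replicates 1 and 3 they were 6.85, 7.17, 4.97, 7.68 and 4.07 for F57C2.4, ule-5, ZC373.2, ZK813.3 and Y62H9A.5, with a median of 6.85.

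**Figure D2:**
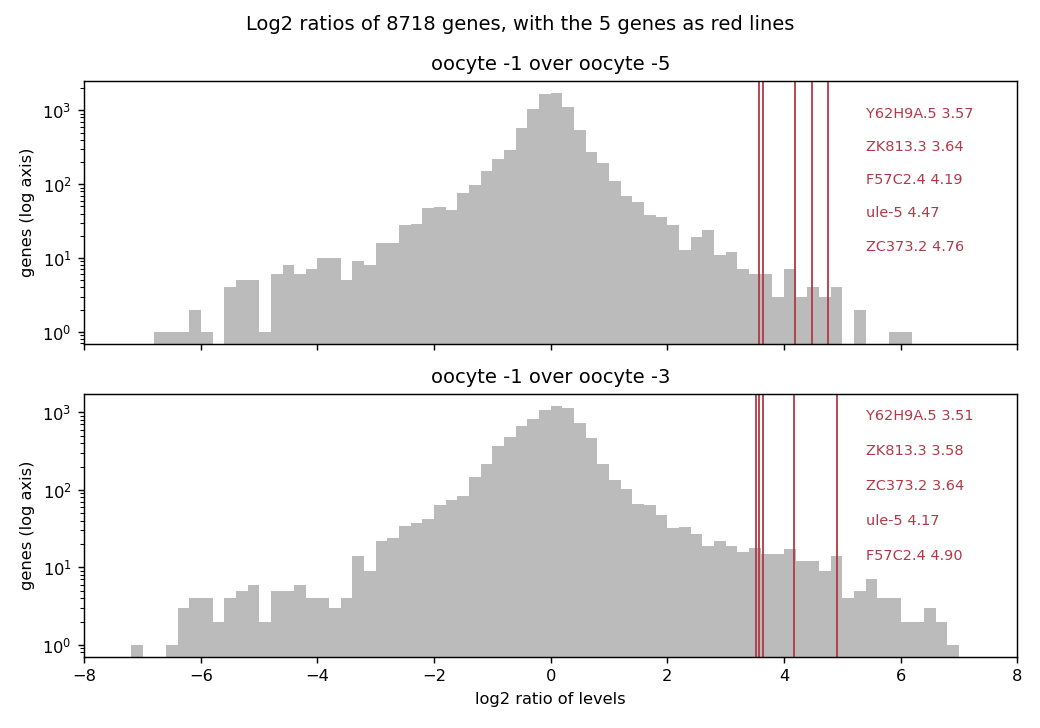
Histograms of the log2 ratio of levels for 8718 genes, oocyte -1 over oocyte -5 (top) and over oocyte -3 (bottom), with the number of genes on a log axis. Red lines mark the 5 genes, which lie between 3.57 and 4.76 in the top panel and between 3.51 and 4.90 in the bottom panel, while the median of all genes is near 0.

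Between the earlier positions the 5 genes had no shared direction. Oocyte -3 over oocyte -5 gave a log2 ratio of 1.12 for ZC373.2, 0.30 for ule-5, 0.06 for ZK813.3, 0.05 for Y62H9A.5 and -0.71 for F57C2.4. The median was 0.06, against -0.01 over all genes. The oocytes of -3 and -5 overlapped for all 5 genes, where 1.14% of all genes were at least 2-fold higher and 1.3% at least 2-fold lower with no overlap. The sign hung on single oocytes. Without replicate 1 of oocyte -3 the log2 ratios were -0.81 for ZC373.2, -2.23 for ule-5, -4.35 for ZK813.3, -1.06 for Y62H9A.5 and -3.25 for F57C2.4. Without replicate 1 of oocyte -5 that of F57C2.4 was 2.20, and without replicate 2 that of ZC373.2 was 1.73. Without replicate 3 of oocyte -5, ZK813.3 had 1.4 and Y62H9A.5 had 1.82.

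Summed over the 5 genes, the share of counts was 0.00178% at -5 (0.00167% to 0.00190% by exact binomial counting error). It was 0.00185% at -3 (0.00175% to 0.00196%) and 0.0297% at -1 (0.0293% to 0.0302%). The spread among oocytes of 1 position was far wider than these intervals. The summed level was 21.6, 11.8, 47.6 and 1.09 CPM in replicates 1 to 4 of oocyte -5, 65.1, 2.27, 1.05 and 10.2 CPM in those of oocyte -3, and 263, 255, 118 and 377 CPM in those of oocyte -1. Replicate 1 held 80.7% of the -3 counts of the 5 genes and was the highest -3 oocyte for each. Replicate 3 of oocyte -1 was the lowest -1 oocyte for each of the 5, and it was also the shallowest of the 12 libraries.

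The genes did not peak in the same oocyte at -5. F57C2.4 and ule-5 were highest in replicate 1, ZC373.2 in replicate 2, and ZK813.3 and Y62H9A.5 in replicate 3. At -1, F57C2.4 was highest in replicate 2, ule-5 in replicate 1 and the other three in replicate 4. The proportions of the neighbours Y62H9A.5 and ule-5 varied more among the -5 and the -3 oocytes than among the -1 oocytes. The count of Y62H9A.5 over that of ule-5 was 0.849, 1.1, 10.8 and 0.500 in the -5 oocytes. It was 1.94, 4, 0.364 and 24.2 in the -3 oocytes and 0.951, 1.58, 1.58 and 2.46 in the -1 oocytes. Some of these rest on few counts. The 0.500 was 1 over 2, the 4 was 20 over 5 and the 0.364 was 4 over 11. The 24.2 was 121 over 5 and the 10.8 was 259 over 24. At -1 each count was at least 176. The part of counting error in the wider spread was not tested.

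Per kb of exon, the level at -1 was 141 CPM per kb for ZC373.2, 136 for F57C2.4, 130.03 for Y62H9A.5, 103 for ZK813.3 and 72.4 for ule-5. This scale favours short genes here, since reads of a 3' end do not grow in number with transcript length. On it the 5 genes took ranks 5373 to 6704 of 8718 at -5, 5311 to 6490 at -3 and 1056 to 2053 at -1.

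ule-5 and Y62H9A.5 are transcribed away from each other, and their annotated starts lie 210 bases apart. Of the 15 genes named for the clone Y62H9A, 10 had no count in any oocyte. Y62H9A.4, the next gene on the far side of Y62H9A.5, had 0.792, 0, 0.775 and 0 CPM at -5, 0, 0, 0 and 0.874 CPM at -3 and 1.36, 8.73, 5.38 and 5.28 CPM at -1. Its -1 oocytes also lay above all others. Y62H9A.3 did not keep that order, with 4.48, 9.19, 0 and 17.4 CPM in the -1 oocytes against 1.82, 3.32, 3.78 and 0 CPM in the -5 oocytes.

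Around ZK813.3, other genes of the same clone had counts, but none had every -1 oocyte above all others. ZK813.7 had 0.238, 1.19, 12 and 0.286 CPM in the -5 oocytes, 32.7, 0, 0 and 0.0514 CPM in the -3 oocytes and 12.2, 45.7, 14.6 and 49.9 CPM in the -1 oocytes. It was high in replicate 1 of oocyte -3 and in replicate 3 of oocyte -5, as ZK813.3 was. ZK813.1 had 7.93, 10.6, 2.80 and 39.1 CPM at -1, against 0.317, 0.711, 8.52 and 0.229 CPM at -5. ZK813.2 was highest in replicate 1 of oocyte -5, at 19.6 CPM, and had 1.68 to 10.1 CPM at -1.

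On the clones of F57C2.4 and ZC373.2, no other gene had every -1 oocyte above all others. On clone F57C2, the 5 other genes had log2 ratios of -0.71 to 0.20 for -1 over -5. They were btb-19, btb-20, pot-2, which acts at telomeres, F57C2.5 and spat-1. The -1 oocytes of btb-19, with 58.5 to 76.5 CPM, lay below the -5 oocytes, with 90.9 to 126 CPM. Those of spat-1, with 119.9 to 140.3 CPM, lay above the -3 oocytes, with 51.2 to 99.3 CPM. On clone ZC373, cbs-1, a cystathionine beta-synthase, had a ratio of -0.08 over -5. ZC373.5 had 1.82, and 1.08 without replicate 2 of oocyte -1. The kinase gene mlck-1 had 0.86 over -5, and 3.45 without replicate 4 of oocyte -5. Over -3 mlck-1 had 3.49 with no overlap, on only 12 counts over the -3 oocytes and 130 over the -1 oocytes. ZC373.2 had 3.64, on 269 and 3215 counts. Among the 5 nearest protein-coding genes on each side, at least 2-fold higher at -1 and apart from all others were 2 of 10 for ule-5, 2 of 10 for Y62H9A.5 and 0 of 10 for each of the other three members. Those for ule-5 and Y62H9A.5 are Y62H9A.4, counted for both, and the partner of the pair, itself picked for this pattern. Of the 10 neighbours, 3 passed the filter for ule-5, 3 for Y62H9A.5, 8 for F57C2.4, 4 for ZC373.2 and 6 for ZK813.3. Among all genes that passed it, 0.596% had every -1 oocyte above all others at any ratio.

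**Figure D3:**
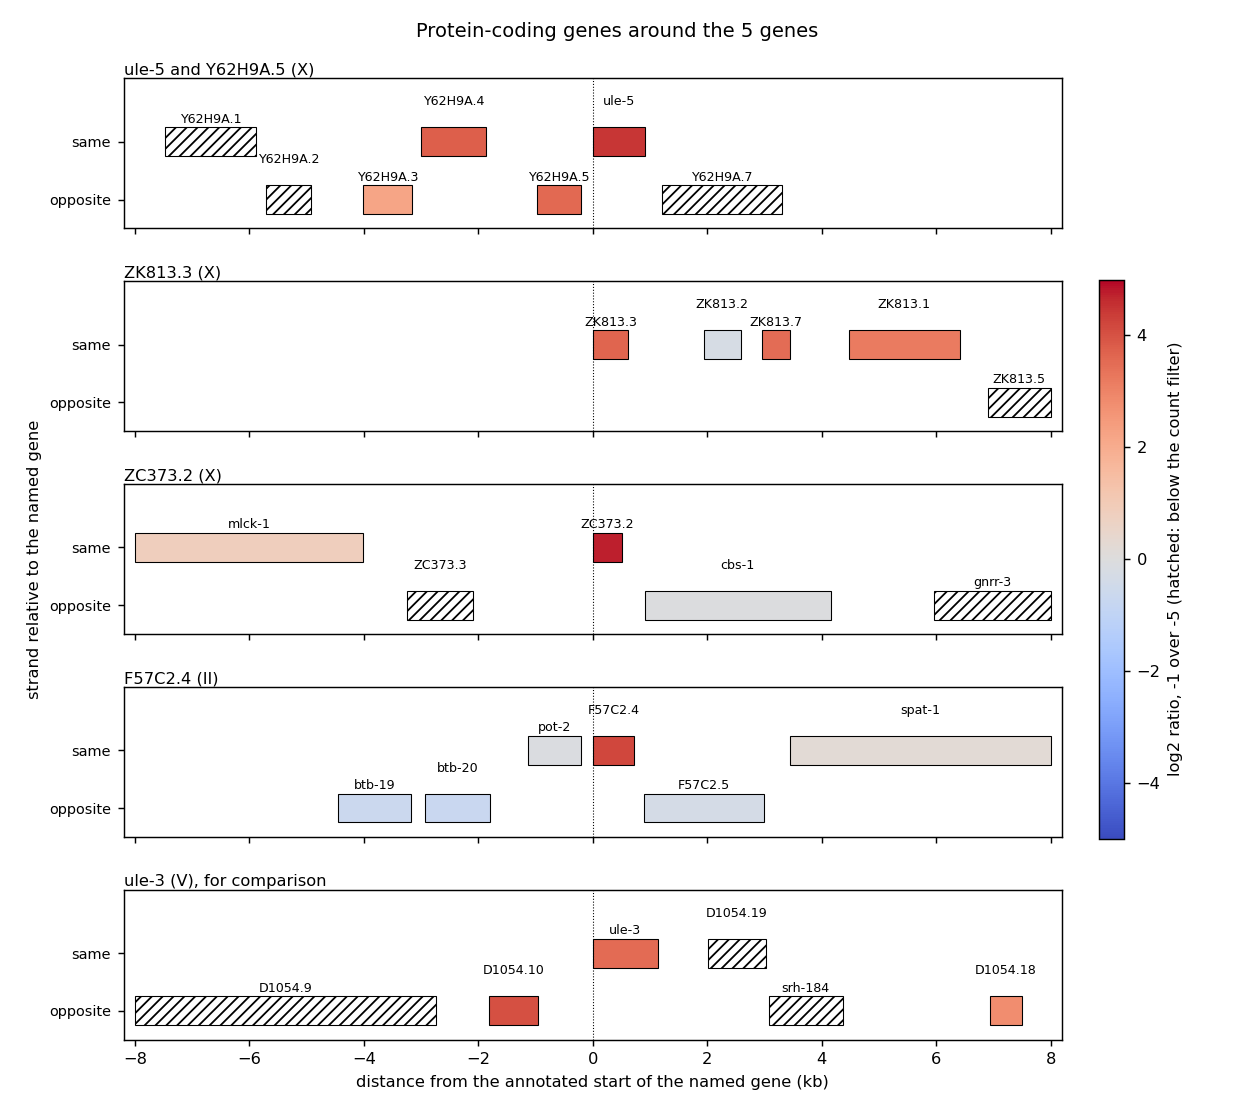
Protein-coding genes around the 5 genes and around ule-3, by distance in kb from the annotated start of the named gene and by strand; colour is the log2 ratio of oocyte -1 over oocyte -5, and hatched genes had too few counts. High ratios beside a member stand next to ule-5 and Y62H9A.5 and on the clone of ZK813.3, and not next to F57C2.4, whose 5 clone neighbours lie between -0.71 and 0.20.

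The limits of the choice were a mean level of 20 CPM and no overlap of oocytes. Just inside the limit on level were F57C2.4, with a mean of 21.8 CPM over the -1 and -3 oocytes, and ule-5, with 22.1 CPM over the -1 and -5 oocytes. Just outside were ule-3 at 18.6 CPM and D1054.10 at 18.4 CPM, both with log2 ratios inside the range of the 5 genes or close to it. ule-3 had 0.555, 1.34, 14.8 and 0.286 CPM at -5, 6.77, 0, 0.186 and 1.28 CPM at -3 and 58.2, 16.6, 24 and 42.1 CPM at -1. D1054.10 had 2.14, 2.21, 5.72 and 0 CPM at -5, 8.19, 0.337, 0 and 1.13 CPM at -3 and 38.8, 35.4, 27.6 and 35.4 CPM at -1. These genes also form a pair on chromosome V with diverging strands, and their starts lie 963 bases apart. By size of the ratio, the gap was wide. The smaller of the log2 ratios was 3.51 for Y62H9A.5, the last member, and 1.31 for H05C05.1, the next of the 38 genes of at least 20 CPM with every -1 oocyte apart.

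Without the limit on level, 12 genes had ratios of at least 3.51 over both positions and every -1 oocyte apart. They are the 5 members, ule-3, D1054.10, Y62H9A.4, Y37D8A.19, E02H9.7, F55B11.2 and F43C1.5. All 12 are protein coding and 5 lie on X. Y37D8A.19 had at most 1.58 CPM at -5 and 0.462 CPM at -3, and 14.6, 25.7, 17.5 and 14.8 CPM at -1. E02H9.7 had 3 counts over the -5 oocytes, 1 over the -3 oocytes and 212 over the -1 oocytes. At -1 all 12 genes had at least 3 counts in every oocyte. Elsewhere the number with at least 3 counts was 9, 7, 12 and 3 in replicates 1 to 4 of oocyte -5 and 7, 3, 3 and 9 in those of oocyte -3. Of the 52 genes with every -1 oocyte above all others, 7 lie on X, or 13.5%.

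**Figure D4:**
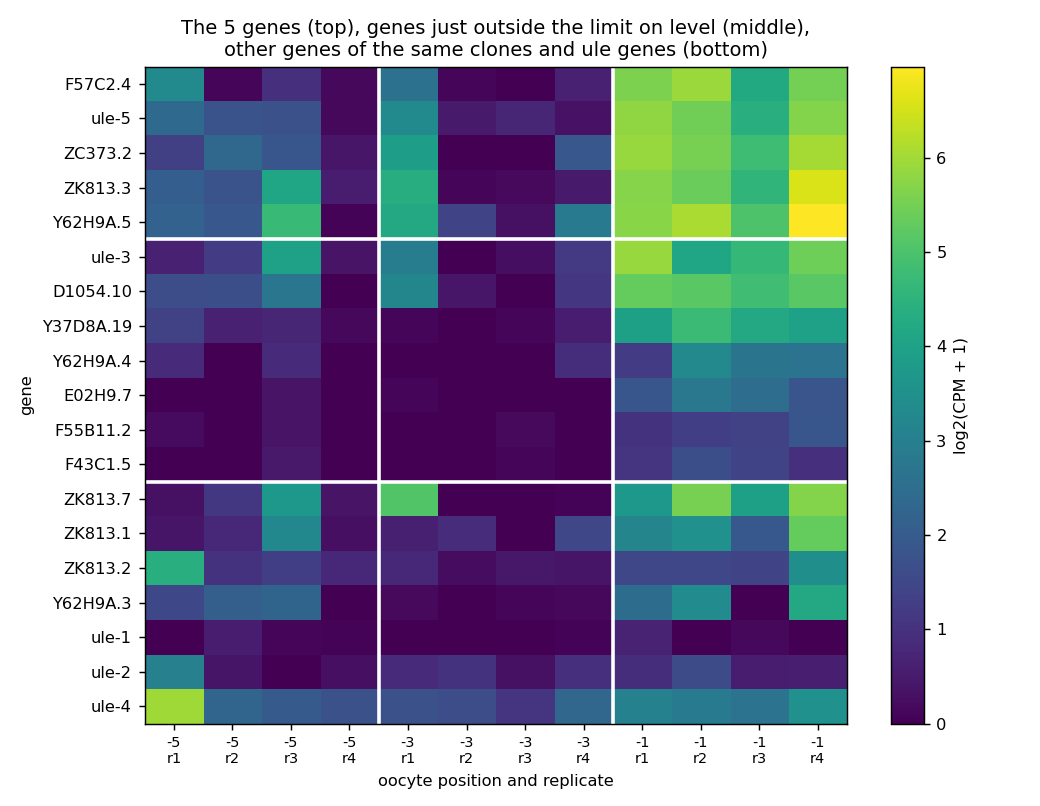
Level as log2(CPM + 1), in colour, of the 5 genes, of 7 genes under the limit on level and of other genes of the same clones and ule genes (rows) in each oocyte (columns, positions -5, -3 and -1, replicates r1 to r4). The -1 columns are brightest for the top and middle rows, and replicate 1 of oocyte -3 is the brightest or next brightest of the other columns for the 5 genes.

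The other ule genes split. Of the 5 on the list, 4 passed the filter, with a median log2 ratio of 1.27 for -1 over -5 and 2.93 for -1 over -3. At least 2-fold higher with no overlap were 2 of 4 over -5, where 0.723% of all genes were, and 3 of 4 over -3, where 1.47% were. ule-3 and the member ule-5 were both times among them, and ule-5 was chosen for it. ule-4 had 7.35, 6.19, 5.27 and 10.4 CPM at -1 against 2.32, 2.1, 1.05 and 3.91 CPM at -3, with no overlap. Over -5 it had a log2 ratio of -1.11, which was 1.42 without replicate 1 of oocyte -5, where ule-4 had 61.6 CPM. ule-2 was highest in that same oocyte, at 7.13 CPM, and had 0.449 to 2.09 CPM at -1. ule-1 had too few counts to pass. Without replicate 1 of oocyte -5 the median over -5 was 2.71, and without replicate 1 of oocyte -3 the median over -3 was 3.88.

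Genes most like the 5 in their pattern over the 12 oocytes were found by Pearson's r of log2(CPM + 1) with the mean of the 5. The oocytes of a position share their place in the row, so r mostly reflects the step to -1. D1054.10 had an r of 0.989, above each of the 5 members' own values of 0.95 to 0.981, though the members are part of the mean. Next came ule-3 at 0.936, ZK813.7 at 0.904, Y37D8A.19 at 0.889, W09C5.1 at 0.887, F55B11.2 at 0.868 and pfd-1, a prefoldin subunit gene, at 0.867. E02H9.7 had 0.859, F43C1.5 had 0.835 and gpd-2, a glyceraldehyde-3-phosphate dehydrogenase gene, had 0.818. Some of these differed little in level. W09C5.1 had 93.2 to 107 CPM at -1 against 62.8 to 82.7 CPM at -5, and gpd-2 had 26.5 to 35.3 CPM at -1 against 13.4 to 20.4 CPM at -5.

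Summed as lists, markers of gonadal sheath and spermatheca, uterus and vulva, sperm, yolk and intestine overlapped between all positions. Such a sum can rest on few genes and does not speak for each gene listed. In replicate 1 of oocyte -1, egl-26 had 66.0 of the 78.1 CPM of the uterus and vulva list. In replicate 4 of oocyte -5, perm-4 and perm-2 had 1019 and 1010 of the 3297 CPM of the sheath and spermatheca list. In replicate 2 of oocyte -1 they had 23.1 and 11.8 of 474 CPM. The ule list, which holds the member ule-5, had 0.000328% to 0.00798% at -5 and 0.000217% to 0.00151% at -3. At -1 it had 0.00529% to 0.0143%, above all -3 oocytes but not above all -5 oocytes. Of 15 genes of the gonadal sheath and spermatheca, 10 passed the filter, and 0 of 10 were at least 2-fold higher at -1 than at -5 with no overlap, where 0.723% of all genes were. Over -3 it was 1 of 10, where 1.47% of all genes were, with a median log2 ratio of 0.27 that was 1.02 without replicate 3 of oocyte -3. Their share of counts was 0.0514% to 0.364% at -5, 0.0282% to 0.118% at -3 and 0.0449% to 0.127% at -1. Their median log2 ratio over -5 was -0.97, and 0.03 without replicate 4 of oocyte -5. For the uterus and vulva, 3 of 7 listed genes passed. The shares were 0.00502% to 0.00697% at -5, 0.00317% to 0.00818% at -3 and 0.00453% to 0.00914% at -1. Of 25 sperm genes 2 passed, and msp-19, msp-142, gsp-4, spe-11 and ssp-16 were among those with no count in any oocyte. The sperm share was 0.000575% to 0.00102% at -5, 0.000340% to 0.00192% at -3 and 0.000429% to 0.00183% at -1.

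At -5 and -1, the yolk protein and intestine lists were highest in single oocytes that were also high for some members. All 6 yolk protein genes passed, with a share of 0.00933% to 0.0261% at -5, 0.00668% to 0.0124% at -3 and 0.00493% to 0.0297% at -1. The intestine list has 16 genes, of which 6 passed and none in the table was at 0. It had 0.000644% to 0.00402% at -5, 0.000527% to 0.00173% at -3 and 0.000432% to 0.00354% at -1. Both lists were highest in replicate 3 of oocyte -5 and replicate 4 of oocyte -1 within those positions, the oocytes where ZK813.3 and Y62H9A.5 were also highest. At -3, replicate 1 was the highest oocyte for all 5 members, but the yolk share was 0.00953% there and 0.0124% in replicate 4. The intestine share was 0.00173% in both of these oocytes. The part of the 2 lists in the levels of the members was not tested.

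Muscle genes had a positive median ratio at -1, but with overlap, and its sign hung on replicate 1 of oocyte -1. Of 18 listed, 16 passed and hlh-1, a myogenic transcription factor gene, had no count. Their median log2 ratio was 0.61 over -5 and 0.85 over -3, and 0 of 16 were at least 2-fold higher with no overlap in either comparison, against 0.723% and 1.47% of all genes. Without replicate 1 of oocyte -1 those medians were -1.11 and -0.77. The share was 0.0409% to 0.115% at -5, 0.0234% to 0.118% at -3 and 0.0856% to 0.170% at -1, and its part in the result was not tested. Much of that share was 1 gene. In replicates 1 to 4 of oocyte -1, unc-54 had 619, 818, 938 and 1010 CPM. There the whole list summed to 1450, 902, 1045 and 1092.5 CPM. Hypodermis and cuticle genes had a median of -1.74 over -5, and 5 of 9 were at least 2-fold lower with no overlap, where 1.03% of all genes were. Without replicate 4 of oocyte -5 the median was -1.02. Their share was 0.0185% to 0.0928% at -5, 0.0105% to 0.0326% at -3 and 0.00989% to 0.0138% at -1. Of that list dpy-7, rol-6, sqt-3 and bli-1 had no count.

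**Figure D5:**
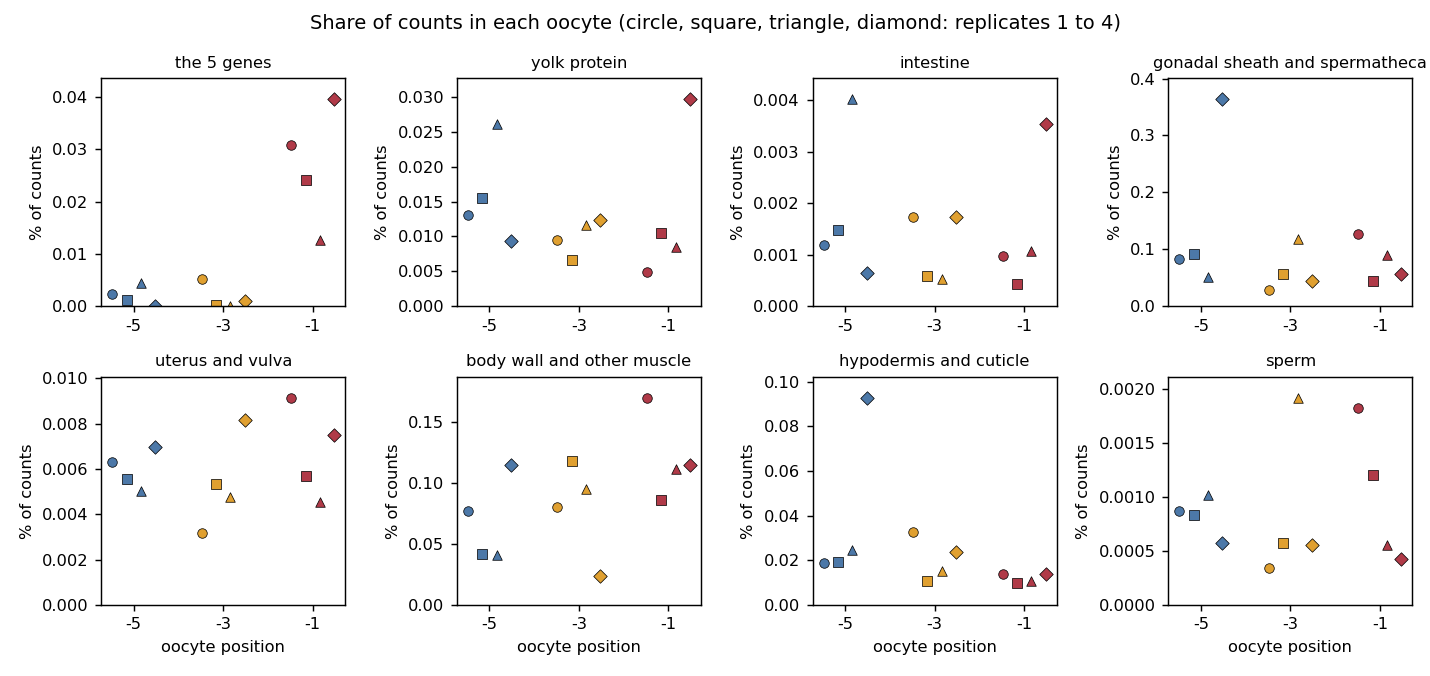
Share of counts, in percent, of the 5 genes together and of 7 marker lists in each oocyte, against oocyte position; shapes mark replicates 1 to 4 and each panel has its own axis from 0. The -1 oocytes lie above all others in the panel of the 5 genes alone, and the yolk and intestine panels have their highest points in replicate 3 of oocyte -5 and replicate 4 of oocyte -1.

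The authors' deposited table of each comparison gave 4 of the 5 genes by name. These tables compare the same oocytes on which the members were chosen, so high ranks in them are no separate support. They also hold another set of genes than the one ranked above. For -1 over -5, the authors' deposited table gave log2 fold changes of 4.49 for ZC373.2, 4.20 for ule-5, 3.16 for ZK813.3 and 3.1 for Y62H9A.5. These ranked 1, 2, 4 and 6 of 7286 genes, and the authors' deposited table gave standard errors of 0.527, 0.605, 0.988 and 1.27. For -1 over -3 the authors' deposited table gave 3.96 for ule-5, 3.49 for ZC373.2, 3.38 for Y62H9A.5 and 3.32 for ZK813.3, at ranks 5, 11, 13 and 14 of 7585. In that order the authors' deposited table gave standard errors of 0.875, 1.83, 1.08 and 1.55. For -3 over -5 the authors' deposited table gave 1.0 for ZC373.2, 0.25 for ule-5, -0.14 for ZK813.3 and -0.26 for Y62H9A.5. In the authors' deposited tables the Wald scores had the opposite sign to the log2 fold changes in every row. Only the fold changes and their standard errors were therefore used.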

How the data were processed

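Single-oocyte libraries were made with the SMART-seq v4 3' DE kit, per the labels' protocols. The authors trimmed reads with cutadapt 1.18, checked them with FastQC 0.11.5, aligned them with STAR and counted them with featureCounts, per the submitters' processing notes, which give version 1.5.3 where the file header gives 1.6.4. The deposited counts are whole reads per gene, not normalized. The counting command, per the file headers, used WormBase WS271 and no option for strand, multi-mapping or overlapping genes, so antisense reads cannot be told apart and near-identical copies, which were not measured here, could lose or share reads. For the genome build the sources used here give no name. The authors' deposited tables (DESeq2 1.32.0, per the submitters' processing notes) hold, for each gene, a mean signal, a log2 fold change, its Wald score and p-values; none of the p-values was used.

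Of 46903 genes, 44018 had a symbol in the reference tables, and 8718 passed the default filter of edgeR 4.0.16 (R 4.3.3). Library sizes were scaled by TMM. A level is the summed count of the 4 oocytes of a position over their summed scaled sizes, in CPM, and a log2 ratio compares 2 levels with a floor of 3 counts over a position. No test was made, because the members were chosen on these values and each position is 1 sample. The members and the 12 lists were chosen with earlier results of these data known. Named genes are the members, genes of their clones with at least 10 counts, the ule genes, the 10 genes most like the members and the genes next to the limits of the choice. Some of the highest genes of the lists are also named. The limit of 20 CPM was read as a mean over the 8 oocytes compared, in both comparisons with -1. The list medians and single genes were also computed without each oocyte. Alternatives were DESeq2 1.42.0 size factors, total counts, equal weight per oocyte, no filter, a floor of 1 count, a 4-fold ratio and leaving out oocytes. The computation of ratios was tested on simulated data. No genome sequence was used, so no sequence is shown.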

Additional observations from a re-analysis of the deposited data

Results flagged for a closer look

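For 31 genes and 12 lists, each position was searched for 1 oocyte far from the other 3 by Dixon's ratio, and 26 of 129 groups had one. For normally spread values, chance would flag about 1 in 20 groups, or 6.45 here. Many groups hold low counts, which need not be spread so, and the chance rate for them was not measured. The 26 are therefore not read as more than chance. Among the 5 genes these were F57C2.4 with 9.11 CPM in replicate 1 of oocyte -5 and 5.23 CPM in replicate 1 of oocyte -3, ule-5 with 9.03 CPM and ZK813.3 with 19.4 CPM in replicate 1 of oocyte -3, and Y62H9A.5 with 25.1 CPM in replicate 3 of oocyte -5. No -1 oocyte of the 5 genes was among them.

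In replicate 1 of oocyte -3, D1054.10 had 8.19 CPM and ZK813.7 had 32.7 CPM. In replicate 3 of oocyte -5, ule-3 had 14.8 CPM, ZK813.7 had 12 CPM, ZK813.1 had 8.52 CPM, F43C1.5 had 0.387 CPM, and E02H9.7 and ZK813.4 had 0.291 CPM each. In replicate 1 of oocyte -5, ule-4 had 61.6 CPM, ZK813.2 had 19.6 CPM and ule-2 had 7.13 CPM. The remaining genes were mlck-1 with 3.2 CPM in replicate 4 of oocyte -5, Y62H9A.4 with 0.874 CPM and Y37D8A.19 with 0.462 CPM in replicate 4 of oocyte -3, ZK813.2 with 10.1 CPM in replicate 4 of oocyte -1 and pfd-1, lower than its group, with 144 CPM in replicate 2 of oocyte -1.

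Among the lists, replicate 4 of oocyte -5 had 0.364% of counts from gonadal sheath and spermatheca genes and 0.0928% from hypodermis and cuticle genes. The sperm list had 0.00192% in replicate 3 of oocyte -3. The coelomocyte list, of which no gene passed the filter, had 0.000233% in replicate 2 of oocyte -1 and 2.67e-05% in replicate 3 of oocyte -5.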

How the results depend on the processing

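All 125 alternative log2 ratios of the 5 genes over -5 and over -3 were at least 1, from 2.96 to 7.99. Of these, 13 moved by over 1.5 times. The members were picked with every -1 oocyte above all others, so leaving out oocytes could not reverse a ratio. That all 125 kept their sign is therefore no check of the pattern. With total counts the median over -3 was 3.83, and with equal weight per oocyte the median of -3 over -5 was -0.19. Without replicates 1 and 3 of oocyte -3 the medians were 6.85 for -1 over -3 and -2.66 for -3 over -5. There ZC373.2, at 1.12 for -3 over -5 with all oocytes, had -0.21. Without single oocytes it had -0.81 to 1.73. Leaving out single oocytes gave medians of 3.64 to 4.88 over -5, 3.21 to 6.70 over -3 and -2.23 to 1.25 for -3 over -5. The genes at least 2-fold higher with no overlap were 0.723% (63 genes) for -1 over -5, 1.47% (128) for -1 over -3 and 1.14% (99) for -3 over -5. Without single oocytes, where fewer values can overlap, the shares were 0.975% to 1.63%, 1.89% to 2.83% and 1.27% to 2.09% in that order. Without the filter the first was 0.760% (106 genes of more tested). At 4-fold they were 0.424% (37), 0.883% (77) and 0.206% (18). DESeq2 size factors shifted a ratio of the 5 genes by at most 0.0167, total counts by at most 0.197 and equal weight per oocyte by at most 0.451. A floor of 1 count over a position in place of 3 shifted no ratio of the 5 genes. No paired analysis was possible because no result comes from a test and replicate numbers mark no shared animal.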

Other observations

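Neurons and genes of ovulation signalling were listed beside the tissues above. Of 12 neuron genes 11 passed the filter, with a median log2 ratio of 0.48 for -1 over -5 and 0.23 for -1 over -3. Of 17 genes of ovulation signalling 13 passed, with medians of 0.13 and 0.28. Their share of counts was 0.0878% to 0.144% at -5, 0.0618% to 0.130% at -3 and 0.102% to 0.149% at -1.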
